A study of Mus musculus with 8 samples.

Results

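The genes described here are 8 redox genes that are known targets of NRF2, the transcription factor that cells use against oxidants and reactive chemicals: Nqo1, Gclc, Gclm, Txn1, Txnrd1, Prdx1, Hmox1 and Sqstm1. They were chosen by name, with earlier results of these data known. Every probe set of the array that the annotation ties to 1 of these symbols and to no other gene was taken. That gave 8 probe sets for 7 of the 8 genes, out of 12422 probe sets that are not controls and 8251 genes that have a probe set of their own. Prdx1, a peroxiredoxin that removes hydrogen peroxide, had no such probe set, since its probe sets also carry the symbol of the pseudogene Gm21399, and no value is given for it. RNA was measured on 8 Affymetrix mouse arrays with 1 RNA sample each. On 4 arrays the RNA came from subconfluent cultures, under 50% confluency, and on 4 from a mature confluent monolayer, all of cells labelled as mouse aortic endothelial cells, with equal cell numbers in every sample. The labels name no genetic change and no treatment in either group, and give no strain, age or passage of the cells. The titles number the arrays of each group from 1 to 4. Arrays of equal number are called 1 experiment here, a name the labels do not give. Their signals deviated together, but the main fit ignores this pairing. A fit with the experiment as a block is given beside it.

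NRF2 (gene Nfe2l2) is held at a low level by KEAP1, which presents it to a CUL3 ubiquitin ligase for destruction. When oxidants or electrophiles modify KEAP1, NRF2 builds up, pairs with a small MAF protein and binds antioxidant response elements, short DNA motifs near its target genes, where the repressor BACH1 competes with it. The targets make glutathione, run the thioredoxin system, reduce quinones and break down haem. In endothelium the pathway is known for its response to flow and to oxidised lipids.

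RefSeq promoter windows, each from 250 bases before to 50 after a transcription start in build GRCm38.p6, were held for 6 of the 8 genes, with 3 alternative starts for Txnrd1. The core of the antioxidant response element was searched as TGACNNNGC on both strands, where N is any base, and the AP-1 motif as TGANTCA. The core stood in 1 of the 3 Txnrd1 windows, in the Gclm window and in the Prdx1 window, and in 12.4% of all 32851 windows. In Prdx1 the match overlapped an AP-1 motif, which 7.81% of all windows held, and no other window of these genes held an AP-1 motif. The windows of Txn1, Nqo1 and Sqstm1 held neither motif. That says only that these letters are not in this stretch, and elements farther away were not searched. The windows of the 4 genes whose RNA differed between the groups are shown 5′ to 3′ on the gene's strand. For Txnrd1 the window shown was picked because it holds the core, and those at chr10:82833701-82834000 and chr10:82860091-82860390, which hold neither motif, are left out. Capitals mark the core, which lies on the other strand and so reads as its reverse complement.
Txnrd1 chr10:82858956-82859255 (+ strand): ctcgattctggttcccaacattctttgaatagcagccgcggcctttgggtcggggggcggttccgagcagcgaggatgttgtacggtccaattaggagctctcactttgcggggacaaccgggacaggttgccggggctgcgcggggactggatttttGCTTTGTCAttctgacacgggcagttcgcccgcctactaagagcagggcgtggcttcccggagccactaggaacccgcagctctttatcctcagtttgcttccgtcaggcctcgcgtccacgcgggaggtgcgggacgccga
Gclm chr3:122245307-122245606 (+ strand): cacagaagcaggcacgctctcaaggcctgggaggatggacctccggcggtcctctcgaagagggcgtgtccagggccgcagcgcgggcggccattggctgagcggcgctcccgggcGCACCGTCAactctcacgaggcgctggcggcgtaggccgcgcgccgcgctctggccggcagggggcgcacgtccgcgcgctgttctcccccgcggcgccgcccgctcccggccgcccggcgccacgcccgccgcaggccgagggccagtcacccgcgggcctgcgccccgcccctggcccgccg
Nqo1 chr8:107403156-107403455 (- strand): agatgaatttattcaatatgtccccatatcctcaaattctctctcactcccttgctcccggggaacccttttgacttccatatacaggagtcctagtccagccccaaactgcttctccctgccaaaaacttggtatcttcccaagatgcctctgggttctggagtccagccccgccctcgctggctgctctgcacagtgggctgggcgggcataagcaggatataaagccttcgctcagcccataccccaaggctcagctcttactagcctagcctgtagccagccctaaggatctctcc
Sqstm1 chr11:50210771-50211070 (- strand): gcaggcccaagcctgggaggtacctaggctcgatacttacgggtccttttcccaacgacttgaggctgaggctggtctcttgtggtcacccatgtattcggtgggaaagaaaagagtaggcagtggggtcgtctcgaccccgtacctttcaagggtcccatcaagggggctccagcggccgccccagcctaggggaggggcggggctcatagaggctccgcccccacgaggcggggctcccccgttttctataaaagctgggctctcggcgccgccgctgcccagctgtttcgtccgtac
In Txnrd1 the core was TGACAAAGC from position -92 to -84, counted from the start site, and in Gclm it was TGACGGTGC from -134 to -126.

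Subconfluent cells carried more RNA of Nqo1, Txnrd1 and Gclm and less of Sqstm1, while Gclc and Hmox1 did not pass the test. Txn1 lay between these outcomes and passed once the experiment number was used as a block. Differences are means of log2(signal + 50), where 50 is a constant that steadies low signals and shrinks their folds. They were tested by limma, a linear model with a shared estimate of variance, over all 6007 probe sets whose mean signal reached 200, among them 7 of the 8 described here. A gene passed at a Benjamini-Hochberg adjusted p under 0.05. Of the 7 genes 3 rose and 1 fell, or 4 and 1 with the block. Over the 4670 genes tested 2.83% rose and 4.39% fell, or 10.1% and 12.1% with the block. The median log2 difference was 0.63 for the 7 genes and 0 over all genes tested. Since the genes were chosen with earlier results known, these counts and this median describe them and are no test of them as a set.

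**Figure D1:**
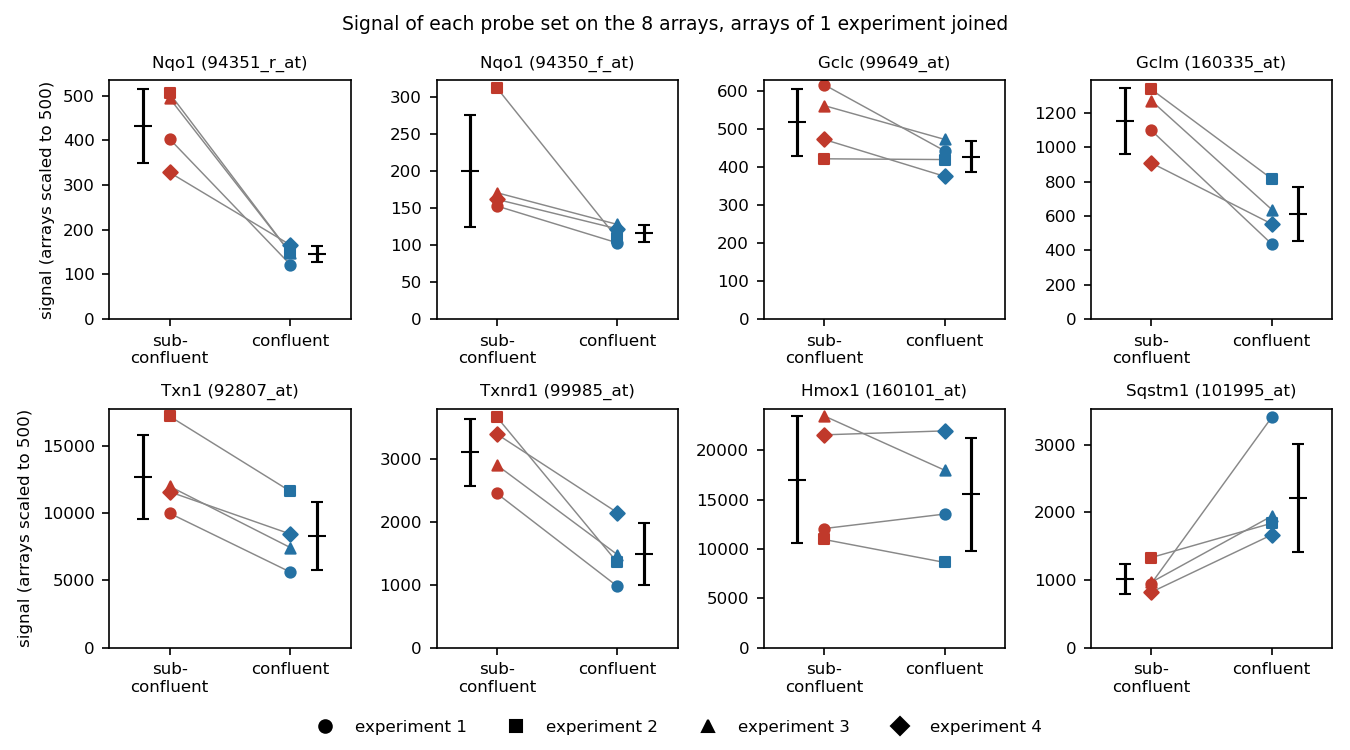
Signal (y axis, linear, arrays scaled to a common target of 500) of the 8 probe sets on the 4 subconfluent arrays (red, left) and the 4 confluent arrays (blue, right), with grey lines joining arrays of the same experiment and black bars for the mean and SD of each group. The groups do not overlap for both Nqo1 probe sets, Gclm, Txnrd1 and Sqstm1, and the lines of Hmox1 run in both directions.

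Nqo1 encodes NAD(P)H quinone dehydrogenase, which reduces quinones by a pair of electrons and so keeps them from cycling with oxygen. Its brighter probe set, 94351_r_at, gave signals of 403, 505, 494 and 328 on subconfluent arrays 1 to 4, against 122, 148, 148 and 166 on confluent arrays 1 to 4. Every subconfluent array was higher than every confluent array. The mean was 432 ± 83.4 in subconfluent and 146 ± 18.1 in confluent cells (SD, n = 4 each). The difference was 2.44-fold (log2 1.29, 95% interval 0.88 to 1.69, limma adjusted p = 0.00449, with groups apart for 8.5% of all genes tested in this direction). The probe set reached the signal minimum through its subconfluent arrays alone, so its call without a minimum is the one free of that choice (limma adjusted p = 0.0136). The second probe set, 94350_f_at, gave 153, 313, 171 and 162 in subconfluent cells, against 103, 109, 128 and 122 in confluent cells. It too was higher on every subconfluent array, but with a mean over all arrays of 158 it was under the minimum. Without a minimum its log2 difference was 0.55 ± 0.23 (SE, limma adjusted p = 0.259), so the probe sets differ in the size of the change. The suffixes of both mark probe sequences that may not be unique to the gene. The log2 difference of 94351_r_at was 1.40 within lot batch A (subconfluent 1 and confluent 1) and 1.19 within lot batch C (subconfluent 3 and 4 against confluent 3). These batches, as the labels number them, are the only ones that hold both groups. With the signal minimum kept, Nqo1 passed in each fit without 1 of the 8 arrays, with limma adjusted p from 0.00782 to 0.0203. It also passed with the experiment as a block (limma adjusted p = 0.00275). These fits share the choice of the minimum, so they do not show whether the call is free of it. Leaving out arrays with no minimum was not tested.

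Glutathione, the main small thiol of the cell, is made in a first step by glutamate-cysteine ligase, in which Gclc encodes the catalytic subunit and Gclm the modifier subunit that makes the enzyme more efficient. Gclm had signals of 1100, 1339, 1273 and 910 in subconfluent cells, against 437, 817, 638 and 554 in confluent cells. The groups did not overlap, with the lowest subconfluent array, 4, just above the highest confluent array, 2. The mean was 1155 ± 192 in subconfluent and 612 ± 160 in confluent cells (SD, n = 4 each), a rise of 1.84-fold (log2 0.88, 95% interval 0.44 to 1.32, limma adjusted p = 0.0308). This call was close to the threshold. It ended in each fit without 1 array other than confluent 2, with limma adjusted p between 0.0509 and 0.0773, and with no signal minimum (0.0521), and held with the experiment as a block (adjusted p = 0.00520). The log2 difference was 1.24 within lot batch A and 0.71 within lot batch C.

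Gclc gave 616, 421, 561 and 472 in subconfluent cells, against 442, 419, 472 and 375 in confluent cells. The values overlapped, although each subconfluent array was above the confluent array of its own experiment, though only by 421 against 419 in experiment 2. The log2 difference was 0.24 with a 95% interval of -0.11 to 0.59, or 0.925-fold to 1.51-fold, and did not pass (limma adjusted p = 0.385, or 0.244 with the block). Whether the subunits differed in their change was tested on the log2 ratio of Gclm to Gclc within each array. The ratio averaged 1.09 ± 0.35 in subconfluent and 0.44 ± 0.37 in confluent cells (SD, n = 4 each), a difference of 0.64. Without pairing it did not pass a two-sided exact permutation test (p = 0.0857, adjusted p = 0.114 over the 3 ratios tested), whose smallest possible p was 0.0286. Even at that p, 1 ratio would pass the adjustment only if another ratio had a low p too. Within the experiments the difference was 0.80, 0.67, 0.72 and 0.37, with a mean of 0.64 ± 0.19 (SD, n = 4 pairs), all higher in subconfluent cells and less spread than the unpaired values. An exact permutation test within the pairs gave the smallest p that 4 pairs allow, 0.125, so pairing leaves no exact test that could pass. Confluent array 1, at -0.02, and subconfluent array 2, at 1.56, stood farthest apart.

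The thioredoxin system hands electrons from NADPH to oxidised proteins. Txnrd1 encodes the cytosolic thioredoxin reductase, a selenoprotein, and Txn1 encodes thioredoxin, the small protein it reduces, which in turn serves ribonucleotide reductase and the peroxiredoxins. Txnrd1 had signals of 2456, 3674, 2908 and 3402 in subconfluent cells, against 975, 1355, 1480 and 2149 in confluent cells. All subconfluent arrays were above all confluent arrays. The mean was 3110 ± 539 in subconfluent and 1490 ± 489 in confluent cells (SD, n = 4 each), a rise of 2.11-fold (log2 1.07, 95% interval 0.57 to 1.58, limma adjusted p = 0.0253). Without subconfluent array 2 or 4 or confluent array 3 the adjusted p was 0.0681, 0.0670 and 0.0616, and the log2 difference stayed between 0.99 and 1.09. It was 1.29 within lot batch A and 1.06 within lot batch C. With the experiment as a block Txnrd1 passed (limma adjusted p = 0.00295). With the block it also passed without any 1 pair, with adjusted p up to 0.0164.

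Txn1 had signals of 9982, 17193, 11985 and 11578 in subconfluent cells, against 5614, 11622, 7435 and 8441 in confluent cells. The groups overlapped through confluent array 2, while experiment 2 was the highest in both groups. The log2 difference was 0.63 (95% interval 0.13 to 1.14) and did not pass without the block (limma adjusted p = 0.112). Within the experiments it was 0.82, 0.56, 0.69 and 0.45, always higher in subconfluent cells. With the experiment as a block Txn1 rose (95% interval 0.40 to 0.87, limma adjusted p = 0.00539), also without any 1 pair (adjusted p up to 0.0324). It also passed with the lot batch as a fixed block (log2 0.73, adjusted p = 0.0332) and without confluent array 2 (log2 0.81, adjusted p = 0.0407). In every other fit without 1 array Txn1 did not pass (limma adjusted p from 0.118 to 0.255). Its log2 difference was lowest without confluent array 1, at 0.46. The log2 difference was 0.82 within lot batch A and 0.66 within lot batch C. The log2 ratio of Txnrd1 to Txn1 averaged -2.00 ± 0.19 in subconfluent and -2.44 ± 0.46 in confluent cells (SD, n = 4 each). The difference of 0.44 did not pass without pairing (exact permutation test, two-sided, p = 0.114, adjusted p = 0.114). Within the experiments it averaged 0.44 ± 0.29 (SD, n = 4 pairs) and was higher in 4 of 4, again at the smallest exact permutation p of 0.125. It was 0.24 without confluent array 2.

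Hmox1 encodes haem oxygenase 1, which splits haem into biliverdin, iron and carbon monoxide, and is among the target genes most often used to follow NRF2 in cultured cells. Its signals were 12063, 10960, 23496 and 21568 in subconfluent cells, against 13534, 8631, 17986 and 21969 in confluent cells. They varied by experiment more than by group, low in experiments 1 and 2 and high in experiments 3 and 4 in both groups. Subconfluent cells were higher in 2 experiments and lower in the other 2. The mean was 17022 ± 6427 in subconfluent and 15530 ± 5747 in confluent cells (SD, n = 4 each). The log2 difference was 0.13 with a 95% interval of -0.56 to 0.83 (limma adjusted p = 0.844). With the block the interval was -0.13 to 0.40 (adjusted p = 0.456), so a rise as large as that of Nqo1, Txnrd1 or Gclm lay outside it. The direction was not stable either, at -0.17 within lot batch A, 0.32 within lot batch C and between -0.12 and 0.33 without 1 array. The log2 ratio of Nqo1 to Hmox1 differed by 1.15 between subconfluent and confluent cells. Without pairing it did not pass (exact permutation test, two-sided, p = 0.0571, adjusted p = 0.114). Within the experiments the difference was 1.56, 1.14, 1.07 and 0.84, with a mean of 1.15 ± 0.30 (SD, n = 4 pairs), all of the same sign and at the smallest exact permutation p of 0.125.

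Sqstm1 encodes p62, a receptor of selective autophagy that carries ubiquitinated cargo to the autophagosome. It also binds KEAP1 and takes it into autophagy, which releases NRF2, so it is both a target and a regulator of the pathway. Its signals were 942, 1329, 963 and 817 in subconfluent cells, against 3402, 1837, 1942 and 1665 in confluent cells. Every subconfluent array was below every confluent array, the opposite order to Nqo1, Txnrd1 and Gclm. The mean was 1013 ± 221 in subconfluent and 2212 ± 802 in confluent cells (SD, n = 4 each). Sqstm1 fell by 1.05 on the log2 scale, 2.07-fold lower in subconfluent cells (95% interval -1.57 to -0.54, limma adjusted p = 0.0293). For 9.25% of all genes tested the groups were apart in this direction. Confluent array 1 was far above the others, and without it Sqstm1 still passed (log2 -0.83, adjusted p = 0.0373). The call ended without subconfluent array 1, 3 or 4 or confluent array 3, with adjusted p of 0.0651, 0.0553, 0.0747 and 0.0646. The log2 difference was -1.80 within lot batch A and -1.09 within lot batch C. With the experiment as a block Sqstm1 passed (limma adjusted p = 0.00904). With the block it also passed without any 1 pair, with adjusted p up to 0.0384.

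**Figure D2:**
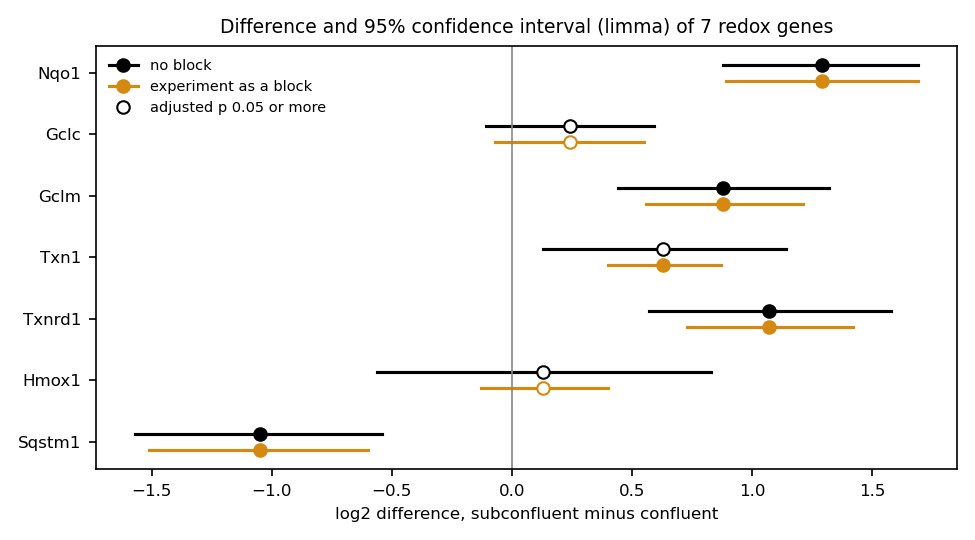
Log2 difference of subconfluent minus confluent cells (x axis) for the 7 genes, with limma's 95% confidence interval without a block (black) and with the experiment as a block (orange), filled where the adjusted p is under 0.05. Nqo1, Gclm and Txnrd1 lie right of 0 and Sqstm1 left of it in both fits, and Txn1 is filled with the block alone.

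Among the 4669 other genes tested, the 3 whose profile over the 8 arrays was most like that of Nqo1 were Sinhcaf, Dlx2 and Taf1d. Likeness was the mean absolute gap between log2 values, each set against the gene's own mean over the arrays, and it was 0.18, 0.19 and 0.20. By the same measure Gclm ranked 6, Txnrd1 24 and Txn1 109, with gaps of 0.22, 0.26 and 0.33. Gclc ranked 1052, Hmox1 2579 and Sqstm1 4521.

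Of 6 regulators of the pathway tested, 0 passed limma's test without the block. At an unadjusted limma p under 0.05, 1 was higher and 1 lower, against 629 and 641 of all 4670 genes tested. Nfe2l2 itself had signals of 1632, 1467, 1426 and 1380 in subconfluent cells, against 1811, 1359, 1365 and 1747 in confluent cells. The groups overlapped, and the log2 difference was -0.08 ± 0.15 (SE, limma adjusted p = 0.810). Bach1, the repressor that competes for the element, had 297, 224, 170 and 371 in subconfluent cells, against 1212, 503, 361 and 526 in confluent cells. It was lower in subconfluent cells in 4 of 4 experiments (log2 -1.06, limma adjusted p = 0.0721). With the experiment as a block it passed (adjusted p = 0.0116). Confluent array 1 was the highest, and without it the log2 difference was -0.73 (limma adjusted p = 0.127). Within lot batch A it was -1.86 and within lot batch C -0.43. Cul3, the scaffold of the ligase, was at 0.45 (adjusted p = 0.0991, or 0.0423 with the block). Mafg, a small MAF partner, was at 0.37 (adjusted p = 0.362), and Keap1, with a mean signal of 63.4, lay under the minimum.

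In a wider set of pathway genes more members were called lower than higher. Of 72 genes in 7 lists, 55 had a probe set of their own and 47 were tested. Of these 0 rose and 7 fell (limma), against 2.83% and 4.39% of all genes tested. At an unadjusted limma p under 0.05, 4 were higher and 13 lower, against 629 and 641 of all 4670 genes tested. With the experiment as a block 3 rose and 13 fell, against 10.1% and 12.1%. The lists' median log2 difference was -0.07. Of the 7 that fell, Nbr1 and Gabarap come from a list of autophagy partners of p62. Second probe sets of Gstm1 and Txnip, also among the 7, were at 0.10 and 0.03. The lists were chosen with earlier results of these data known, so these counts describe them and are not a test.

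Among genes of glutathione supply and use, 2 of 11 tested fell, with or without the block. Both encode enzymes that attach glutathione to reactive compounds, but Gstp1, another such gene of the list, was at -0.04 (limma adjusted p = 0.904). Of all genes tested 4.39% fell, or 12.1% with the block. Mgst1, a glutathione transferase of membranes, had 1758, 364, 1072 and 861 in subconfluent cells, against 6333, 3954, 3398 and 3668 in confluent cells. It was lower on every subconfluent array, by 4.55-fold (log2 -2.19, limma adjusted p = 0.0130). The cytosolic transferase gene Gstm1 fell 2.48-fold (log2 -1.31, adjusted p = 0.00629) by a probe set that can detect relatives of its family, while its dimmer second probe set, 161633_r_at, was at 0.10 (adjusted p = 0.855). Of 7 quinone, carbonyl and phase II genes 1 fell, or 2 with the block. Ephx1, the epoxide hydrolase of the endoplasmic reticulum, fell 2.62-fold (log2 -1.39, adjusted p = 0.0183). Next in that list was Cyb5r3, a cytochrome b5 reductase, at -0.51 (adjusted p = 0.175, or 0.0355 with the block). Leaving out array subconfluent 4 gave Ephx1 an adjusted p of 0.0524, and Mgst1 and Gstm1 passed without any 1 array.

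Of 6 other thioredoxin and peroxiredoxin genes 1 fell and 0 rose, or 2 and 1 with the block. Over all genes tested 4.39% fell and 2.83% rose, or 12.1% and 10.1% with the block. Txnip, whose protein binds and inhibits thioredoxin, was 2.05-fold lower (log2 -1.04, limma adjusted p = 0.0315) by probe set 160547_s_at. Its dimmer second probe set, 160548_at, with a mean signal of 235, was at 0.03 (adjusted p = 0.953). Whether a fall of Txnip is seen thus depends on the probe set. The second fall with the block was Srxn1, at -0.49 by 161090_i_at (limma adjusted p = 0.130, or 0.0330 with the block). Its dimmer second probe set, 102780_at, was at 0.29 (adjusted p = 0.455), the other direction. The mitochondrial peroxiredoxin gene Prdx3 was at 0.56 (adjusted p = 0.0902, or 0.0445 with the block). Among 6 genes that supply NADPH 1 fell, with or without the block. This was Idh1, a cytosolic isocitrate dehydrogenase, which fell 1.88-fold (log2 -0.91, adjusted p = 0.0279). Pgd, of the pentose phosphate route, was at 0.51 (adjusted p = 0.173). Of 4 other haem and iron genes 0 passed without the block. At an unadjusted limma p under 0.05, 1 was higher, against 629 of all 4670 genes tested. The transferrin receptor gene Tfrc was at 0.80 (adjusted p = 0.129, or 0.00580 with the block), and the ferritin gene Fth1 at -0.16 (adjusted p = 0.502). The calls of Txnip and Idh1 ended without single arrays, Txnip without all but subconfluent 3 and confluent 1 and 2, and Idh1 without all but subconfluent 3 and confluent 1 and 2, with adjusted p up to 0.0757. That of Idh1 also ended with the lot batch as a fixed block (log2 -0.80, limma adjusted p = 0.0670), and both ended with no signal minimum (0.0565 for Txnip and 0.0526 for Idh1).

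Of 7 tested genes that work beside p62 in selective autophagy, 2 fell as Sqstm1 did and 0 rose, or 5 and 0 with the block, where 4.39% of all genes tested fell without the block and 12.1% with it. A negative difference was found in 6 of the 7, against 2313 of all 4670 genes tested, and the list median was -0.68 against 0. The list was chosen with earlier results of these data known, so these numbers describe it and are not a test. Nbr1, a cargo receptor related to p62, had 618, 398, 612 and 630 in subconfluent cells, against 1575, 774, 1349 and 1351 in confluent cells. No subconfluent array reached the lowest confluent array, and the fall was 2.10-fold (log2 -1.07, limma adjusted p = 0.0260). Gabarap, which encodes a small protein of the autophagosome membrane that cargo receptors bind, fell 1.90-fold (log2 -0.92, adjusted p = 0.0356). Its log2 difference was -1.55 within lot batch A and -0.62 within lot batch C, and that of Nbr1 was -1.28 and -1.06. Both lost the call in most fits without 1 array, with adjusted p up to 0.0700 for Nbr1 and 0.0896 for Gabarap, and Gabarap also with no signal minimum (0.0612).

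**Figure D3:**
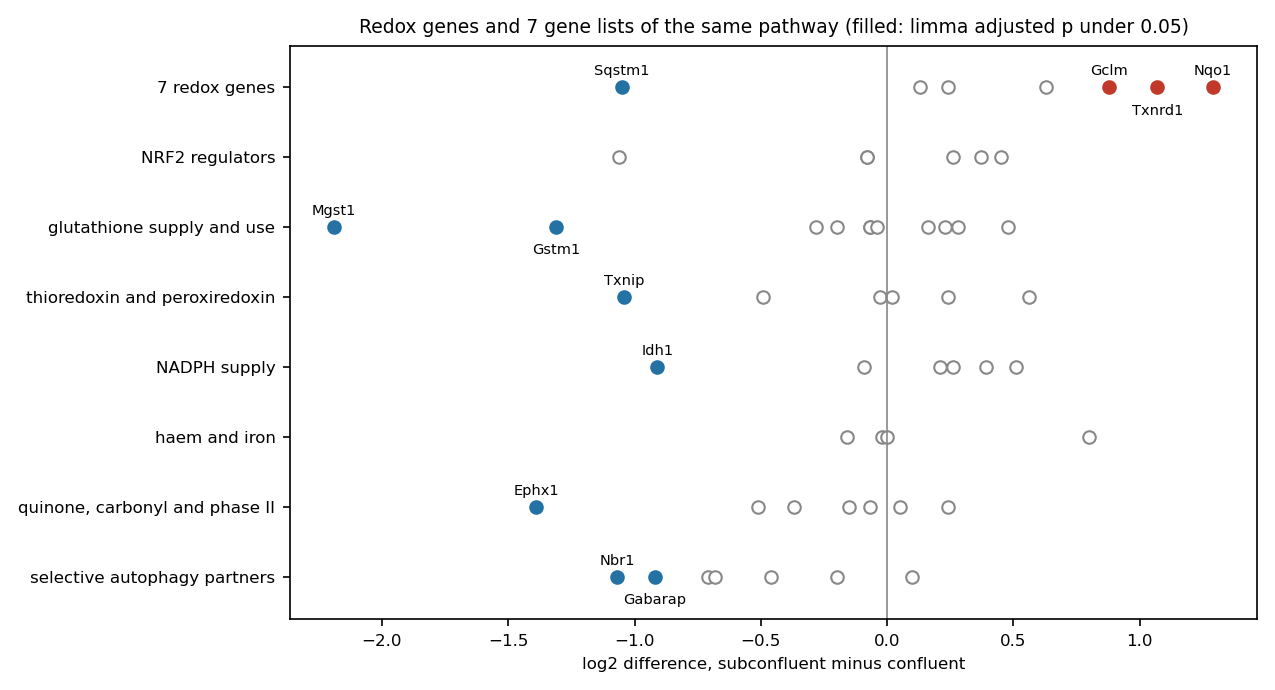
Log2 difference of subconfluent minus confluent cells (x axis) of the 7 redox genes (top row) and of the tested genes of the 7 pathway lists (rows below), 1 point per gene, filled and named where limma's adjusted p is under 0.05. Every filled point outside the top row lies left of 0, from -0.91 for Idh1 to -2.19 for Mgst1, and Gabarap lies at -0.92.

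**Figure D4:**
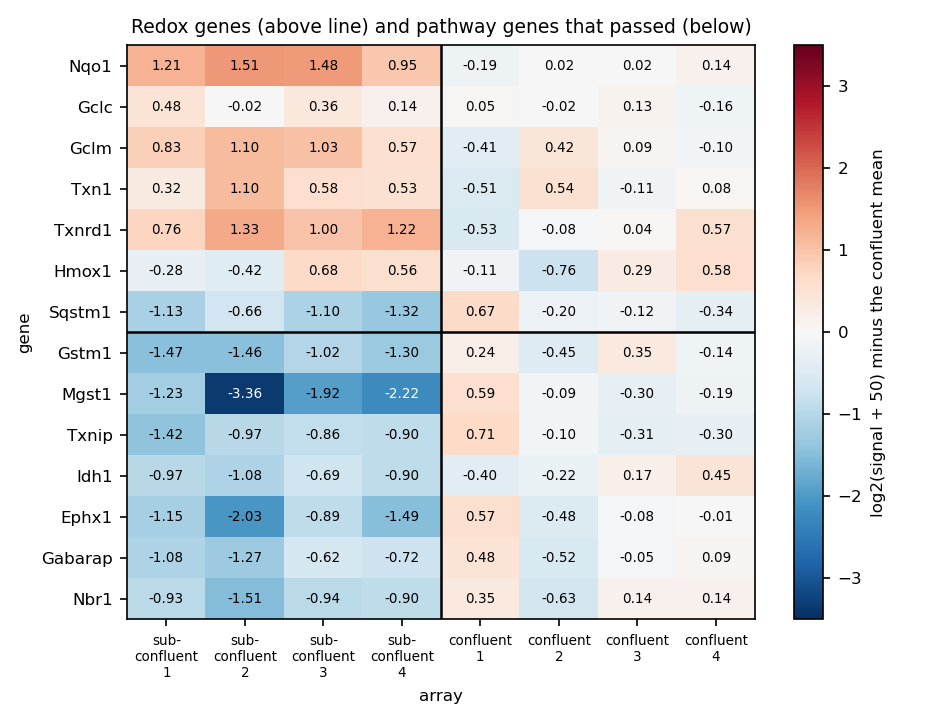
Log2(signal + 50) minus the gene's confluent mean on each array (columns, subconfluent left and confluent right), for the 7 redox genes (above the line) and the 7 pathway genes that passed (below). Nqo1 is at 0.95 to 1.51 and Sqstm1 at -1.32 to -0.66 on the subconfluent arrays, where Hmox1 spans -0.42 to 0.68.

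Other measures of the samples moved with the groups. The summed signal of 14 fibroblast and pericyte markers, 9 of which reached the minimum, ran from 35884 to 50685 on subconfluent and from 62713 to 93383 on confluent arrays. The summed signal of 20 genes of S phase and mitosis, 19 of which reached it, ran from 50046 to 57861 on subconfluent and from 16176 to 45768 on confluent arrays. The summed signal of 15 endothelial markers ran from 1561 to 1707 on subconfluent and from 1834 to 2160 on confluent arrays. Only 2 of them reached the minimum, Eng with a mean signal of 832 and Flt4 with 285. Sox17 and Sox18 had 134 and 150. Cdh5, Vwf and Pecam1, which define the cell type, had mean signals of 13, 23.3 and 111, so these bear the label endothelial out little. The summed signal of 12 macrophage markers ran from 1930 to 2546 on subconfluent and from 2728 to 4023 on confluent arrays. Of these markers 1 reached the minimum, Cd14. Its mean was 1521 in subconfluent and 2541 in confluent cells, the larger part of the sum. Cd68, Csf1r and Fcgr1 had means over all arrays of 190, 187 and 161, and Lyz2 and Ptprc of 29.7 and 11.2. These 4 sums did not overlap between the groups. The sum of 8 smooth muscle markers, 4 of which reached the minimum, did overlap, at 2323 to 10723 on subconfluent and 3606 to 5570 on confluent arrays, while single members moved in both directions. Mylk fell 3.58-fold (limma adjusted p = 0.0163). Tagln was 2.76-fold and Acta2 2.20-fold higher in subconfluent cells, and both passed with the block alone (adjusted p = 0.0102 and 0.0172, or 0.108 and 0.228 without it). Myh11, which defines mature smooth muscle, had a mean signal of 33.4. Hmox1 is known to be abundant in macrophages. The part of these cell types and of the growth state in the results above was not tested, and in such bulk RNA fewer cells of a type and less RNA per cell cannot be told apart. Scale factors ran from 3.05 to 13.3 and the arrays' median signals from 169 to 187. With 4 arrays a group the precision is limited by their number.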

How the data were processed

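RNA was measured on 4 subconfluent and 4 confluent Affymetrix arrays, and samples were grouped by their titles. The deposited table holds linear signal per probe set. The authors computed it with Affymetrix' statistical algorithm and set each array to a target of 500, as the descriptions in the labels record. The software version is not given in the sources used here, and detection calls were not used here. Control probe sets, 66 of 12488, were left out, and genes were named from the array's annotation.

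Probe sets whose mean signal over all arrays reached 200 were put on the log2(signal + 50) scale and tested with limma 3.58.1 in R 4.3.3 (variance trend, two-sided, Benjamini-Hochberg adjustment, threshold 0.05), a step tested on simulated data. The brightest probe set stood for a gene. Arrays of equal experiment number deviated together (correlations of 0.348 to 0.516, against at most 0.0681 for other numbers). The main fit ignores this pairing. A fit with the experiment as a block is given for the redox genes and where it changes a call. Nothing says that replicates came from separate cultures, so p-values measure the spread between these samples. Ratios of 2 genes were compared by exact permutation over 70 arrangements, and within the 4 pairs by exchanging the groups in each. Figures used Python 3.11.15 and matplotlib 3.10.9. Promoter sequences are RefSeq's.

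The genes, lists and tests were chosen with earlier results of these data known. The text names all 8 genes and, of the pathway lists, the genes that passed, the 2 with the smallest p per list, 4 regulators and the 3 genes most like Nqo1. Gstp1 and Srxn1 are named as well, since they limit what the counts of their lists show. Alternatives were pseudocounts of 1 and 150, no minimum or one of 500, quantile normalization, median centring, lot batch as a fixed or random block and within lots, the scale factor as a covariate, no variance trend, and leaving out arrays or pairs.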

Additional observations from a re-analysis of the deposited data

Results flagged for a closer look

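In groups of 4 arrays, a highest or lowest signal far from the others, by Dixon's ratio of gap to range, was found in 5 of 48 groups tested, and chance alone gives about 1 in 20. On subconfluent array 2 the second Nqo1 probe set had 312.6, against 153 to 171 on the other subconfluent arrays. Subconfluent array 2 was also lowest in its group for Cyb5r3, at 1582.7 against 2267 to 2319, and for Nbr1, at 397.8 against 612 to 630. On confluent array 1 Sqstm1 had 3402.4, against 1665 to 1942 on the other confluent arrays, and Txnip had 1295.2, against 616 to 718. Subconfluent array 2 had the highest scale factor of all arrays, 13.3, and confluent array 1 one of 5.58. The part of the scale factor in these values was not tested, and with the log2 scale factor as a covariate the calls of the 7 redox genes were 3 higher and 1 lower, as without it.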

How the results depend on the processing

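The redox genes kept counts of 3 higher and 1 lower with pseudocounts of 1 and 150, quantile normalization, median centring, the scale factor as a covariate and no variance trend. With the experiment number as a replicate block, or the lot batch as a fixed or random block, they were 4 higher and 1 lower. They were 2 and 1 with no minimum, where Gclm had an adjusted p of 0.0521, and with a minimum of 500, where Nqo1 and Gclc were not tested. Within lot batch C, 2 subconfluent arrays against 1 confluent array, 0 were higher and 0 lower. Without 1 array the counts ran from 1 to 4 higher and from 0 to 1 lower, and with the replicate block without 1 pair they stayed at 4 and 1. Pathway genes, 0 higher and 7 lower, became 3 and 13 with the replicate block, 1 and 8 with the lot batch as a fixed block, and 1 and 10 as a random block. Their lower count was 4 with no minimum. Within lot batch C they were 0 and 0. Without 1 array they ran from 0 to 1 higher and from 2 to 9 lower, and from 1 to 2 and 8 to 10 with the block without 1 pair. Over all probe sets the counts were 165 higher and 244 lower, against 597 and 679 with the replicate block, which ended no call of these 7 genes. The cause of these shifts was not tested. The 3 ratios kept their direction, between 0.24 and 1.56, with both pseudocounts, quantile normalization, the replicate block, the lot batch as a fixed block, the scale factor, within lot batches A and C and without 1 array or pair. With the replicate block their exact p was 0.125, the smallest 4 pairs allow. For them the lot batch as a random block was not run, and the minimum, median centring and the variance trend do not enter. Nqo1 in 94350_f_at and genes under the minimum are limited by signal near background.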
